A study of Homo sapiens with 36 samples.

Results

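The miR-34 and miR-449 family comprises 6 mature miRNAs grouped by their related seeds, the seed being the bases of a miRNA that pair with its targets: hsa-miR-34a-5p, hsa-miR-34b-5p, hsa-miR-34c-5p, hsa-miR-449c-5p, hsa-miR-449b-5p and hsa-miR-449a. The members were chosen by name, and 5 of the 6 were found among the 509 miRNA names of the 7 deposited tables. hsa-miR-34b-5p was listed in none of them. hsa-miR-34a-5p, hsa-miR-34c-5p, hsa-miR-449a and hsa-miR-449c-5p were listed in all 7 tables, whereas hsa-miR-449b-5p was listed in 3, those of HCT116 5/4, HCT116 18/3 c2 and HCT116* 8/3 c7. The lowest mean normalised count listed ran from 1.10 in RPE1* 7/3 to 11.9 in HCT116* 3/3 c11. A miRNA that is not listed may thus lie under the floor of a table, and its expression is not known. None of the 5 searched 3p arms of the same hairpins was listed. Nor were the 3p arms searched for other miRNAs, such as hsa-miR-22-3p and hsa-miR-145-3p, whose 5p arms were listed. The absence is thus not particular to this family.

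Small RNA was sequenced in 36 libraries of 12 groups, 3 libraries each, from human cell lines with gained chromosomes and their near-diploid controls. HCT116 is a colorectal carcinoma line with functional p53, and RPE1 is a telomerase-immortalised line of retinal pigment epithelium. An asterisk marks cells that carry the fluorescent histone fusion H2B-GFP. HCT116 5/4, with 4 copies of chromosome 5, was compared with HCT116. HCT116 18/3 c2, HCT116* 3/3 c11 and HCT116* 8/3 c7, with 3 copies of chromosome 18, 3 and 8, were each compared with the same 3 HCT116* libraries. RPE1 5/3 12/3, with 3 copies of chromosomes 5 and 12, was compared with RPE1, RPE1* 7/3, with 3 copies of chromosome 7, with RPE1* libraries 11-13, and RPE1* 21/3, with 3 copies of chromosome 21, with RPE1* libraries 1-3. The labels name no treatment.

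The lines were made by transferring single chromosomes, and c2, c7 and c11 name clones grown from 1 cell. The sources used here differ on where the HCT116 control cells were obtained. The extra chromosome 12 of RPE1 5/3 12/3 and further chromosomes 9 and 12 in RPE1* 7/3 were spontaneous gains. HCT116 18/3 c2 carries no H2B-GFP by its name while its control does, so the chromosome gain and the difference in H2B-GFP cannot be told apart in that table. Each table holds the mean normalised count of every miRNA over its 6 libraries and the log2 ratio of line to control (its log2 fold change) with a standard error. Values of single libraries and library depths were not analysed here, so groups are described by their means and errors and the overlap of single libraries is not given. In such bulk samples, fewer expressing cells and less RNA per cell cannot be told apart.

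miRNAs of this family repress messages whose 3' ends match the seed, and those of CDK4 and MET are well known among them. Transcription of the miR-34 genes is activated directly by p53 after DNA damage, and raising miR-34a slows proliferation or promotes senescence and apoptosis. The miR-449 genes lie in an intron of CDC20B, are induced by E2F1 and are abundant in multiciliated cells of the airways, where they help cells to leave the cell cycle.

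The mature sequences show why these miRNAs are treated as one family and where they differ. They are RefSeq entries (GRCh38.p14) found for 5 of the 6 members, hsa-miR-34c-5p being named only, and are written 5′ to 3′ with the seed, bases 2 to 8, in capitals. The first 3 share 1 seed.
hsa-miR-34a-5p: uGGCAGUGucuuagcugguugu
hsa-miR-449a: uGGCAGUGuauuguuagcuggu
hsa-miR-449b-5p: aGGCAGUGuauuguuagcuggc
The next 2 begin 1 base further upstream, so that the same letters are shifted by 1 position and the seed reads differently.
hsa-miR-34b-5p: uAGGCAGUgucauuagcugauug
hsa-miR-449c-5p: uAGGCAGUguauugcuagcggcugu
The shifted seed was also carried by hsa-miR-2682-5p, which is no member and is shown because it was the only other RefSeq human miRNA with either seed among 2370 entries.
hsa-miR-2682-5p: cAGGCAGUgacuguucagacguc

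hsa-miR-449a and hsa-miR-449b-5p were identical at 20 of 22 positions, differing by U1A and U22C, with positions counted from the 5′ end of hsa-miR-449a. hsa-miR-449a and hsa-miR-449c-5p matched at 18 of 22 aligned positions. hsa-miR-34a-5p and hsa-miR-449a shared an unbroken run of 9 bases from their first base and matched at 15 of 22 positions. Since the pair hsa-miR-449a and hsa-miR-449b-5p differs only at its ends, the assignment of trimmed reads between them is uncertain.

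The members derive from 3 places in the genome (GRCh37, the files' build hg19). MIR34A lies at chr1:9211727-9211836 on the minus strand, in an exon of its host non-coding gene MIR34AHG. MIR34B, at chr11:111383663-111383746, and MIR34C, at chr11:111384164-111384240, lie on the plus strand in exons of the non-coding gene MIR34BHG and opposite an intron of BTG4. MIR449A (chr5:54466360-54466450), MIR449B (chr5:54466474-54466570) and MIR449C (chr5:54468090-54468181) lie on the minus strand within 1822 bp of one another, in an intron of CDC20B. Chromosome 5 was gained in HCT116 5/4 and RPE1 5/3 12/3, while neither chromosome 1 nor chromosome 11 was a labelled gain in any line.

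To compare levels between tables, the mean of each group was worked out from the table's mean and fold change and expressed in parts of 1000000 of the table's summed means (ppm). The tables were normalised separately, so these levels are a description without a test. hsa-miR-34a-5p was the most abundant member in every line and control, between 70.3 and 648 ppm in controls and between 122 and 499.7 in aneuploid lines, and ranked 49th to 69th by mean within its table. hsa-miR-449c-5p came second in the HCT116-derived cells, at 31.8 to 91.8 ppm in controls. In the RPE1-derived controls it was far lower, at 4.11 to 5.55 ppm.
hsa-miR-34c-5p lay between 3.99 and 12.5 ppm in all controls and overlapped between the 2 cell types. hsa-miR-449a was at 4.70 to 5.51 ppm in HCT116-derived and 0.42 to 1.13 in RPE1-derived controls. hsa-miR-449b-5p was the least abundant, at 0.72 to 1.36 ppm in the controls of its 3 tables. The control groups of the 3 tables that share the HCT116* libraries gave close levels, the highest ppm value being 1.02 times the lowest for hsa-miR-34a-5p and at most 1.21 times for the other members.

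**Figure D1:**
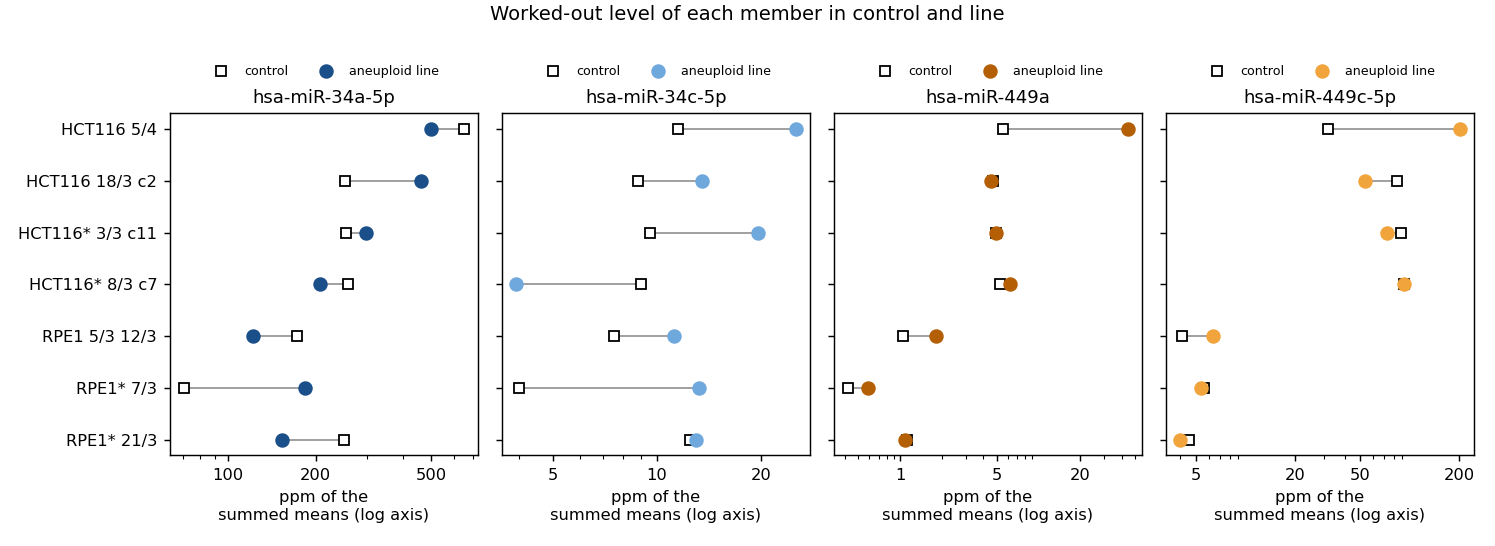
Worked-out level of 4 members in the control (open squares) and aneuploid line (filled circles) of each of the 7 tables, in ppm of the table's summed mean normalised counts, on log axes; no error is shown because single libraries were not analysed. hsa-miR-449c-5p stands at 201 ppm in HCT116 5/4, above all other groups, and the RPE1* 11-13 control of RPE1* 7/3 has the lowest hsa-miR-34a-5p level, 70.3 ppm.

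The identity of the cells was checked with marker miRNAs. Of 9 miRNAs of colon epithelium, 7 were listed in each HCT116-derived table and summed to 2018 to 3155 ppm, against 192 to 251 ppm in the RPE1-derived tables. Most of the HCT116-derived sum was hsa-miR-200a-5p, at 1138 to 2544 ppm, against 0.58 in RPE1* 21/3, the only RPE1-derived table that listed it. hsa-miR-194-5p was at 16.3 to 139 ppm in HCT116-derived and 3.93 to 24.5 in RPE1-derived tables. hsa-miR-215 was at 5.71 to 23.8 and 4.64 to 7.97, so both overlapped between the cell types. hsa-miR-192-5p did not overlap on these table means, at 281 to 586 against 166 to 242. Each such mean pools line and control, and hsa-miR-192-5p changed within tables. Its log2 fold change was, for example, -1.21 in HCT116 18/3 c2 and 1.29 in RPE1 5/3 12/3. Its levels in single groups, which may overlap between the cell types, were not worked out. hsa-miR-204-5p of pigment epithelium was at 3.302 to 4.50 ppm in the HCT116-derived tables and at 379.5 to 1450 in the RPE1-derived ones. Neither of the 2 muscle miRNAs was listed, and of 3 blood miRNAs only hsa-miR-142-5p was, in the 4 HCT116-derived tables.

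A miRNA was called higher or lower when its mean was at least 10, its log2 fold change at least 0.6 in size and its adjusted p under 0.05. The p came from a two-sided Wald test on the deposited DESeq2 fold changes and standard errors, with Benjamini-Hochberg adjustment over all miRNAs of the table. The 5 listed members gave 31 values over the 7 tables, of which 27 had a mean of at least 10 and were tested. Of these, 9 were called higher and 2 lower. Over all miRNAs tested, the share called in either direction ran from 8.66% in RPE1* 21/3 to 30.4% in RPE1 5/3 12/3. The calls were spread unevenly: hsa-miR-34c-5p was called in 5 lines, hsa-miR-34a-5p and hsa-miR-449c-5p in 2 each, and hsa-miR-449a and hsa-miR-449b-5p in HCT116 5/4 only, the one line where hsa-miR-449b-5p reached a mean of 10. With a t distribution of 4 degrees of freedom in place of the normal, 3 calls were left, those of hsa-miR-449a and hsa-miR-449c-5p in HCT116 5/4 and of hsa-miR-34a-5p in RPE1* 7/3. The fit of HCT116 5/4 held the replicate number as a term, and with the 2 degrees of freedom this leaves, none of its 4 member calls was left. In this setting even hsa-miR-449c-5p, at an unadjusted p of 0.0048, had an adjusted p of 0.296 over the 358 listed miRNAs. DESeq2 errors draw on all miRNAs of a table, so a t distribution with so few degrees of freedom is a stricter reference than they call for. With 2 degrees of freedom even very large changes could hardly be called, so this setting cannot tell changed members from unchanged ones. How many of all miRNAs kept a call under either t distribution is not given, so these losses are no result about the members.

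**Figure D2:**
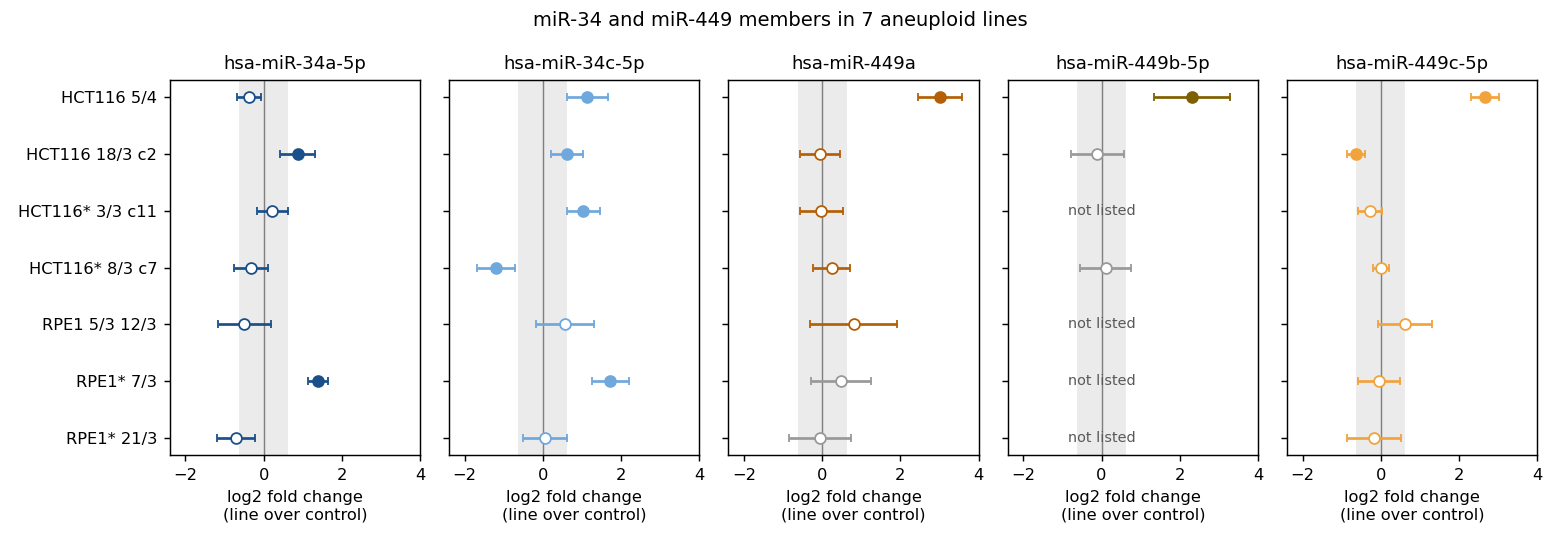
Log2 fold change of line over control for the 5 listed members (panels) in the 7 aneuploid lines (rows), from 3 against 3 libraries each. Bars are 95% intervals from the standard error, filled points were called, open points were not, grey points had a mean under 10, and the grey band marks fold changes smaller than 0.6; the miR-449 members stand near 2 to 3 in HCT116 5/4 alone, and hsa-miR-34c-5p takes both directions.

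All 3 miR-449 members rose in HCT116 5/4, the line with 4 copies of their chromosome. hsa-miR-449a went from a worked-out mean of 30.6 normalised counts in HCT116 to 246 in HCT116 5/4, a log2 fold change of 3.01 ± 0.29 (SE, n = 3 against 3, Wald adjusted p = 3.72e-24 on DESeq2 errors). hsa-miR-449c-5p went from 177 to 1118, with a log2 fold change of 2.66 ± 0.19 (DESeq2-based adjusted p = 7.68e-45). hsa-miR-449b-5p went from 7.53 to 37.4, with 2.31 ± 0.50 and 3.23e-05. These are rises of 8.04-fold, 6.33-fold and 4.97-fold. With a t distribution of 2 degrees of freedom the adjusted p-values on the DESeq2 errors were 0.296, 0.296 and 0.345 (unadjusted p = 0.0090, 0.0048 and 0.0438).

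hsa-miR-34c-5p, encoded on chromosome 11, rose with them in HCT116 5/4, from 63.9 to 140 normalised counts (log2 fold change 1.14 ± 0.27, DESeq2-based adjusted p = 0.000132). hsa-miR-34a-5p stood at 3603 in HCT116 and 2777 in HCT116 5/4, a log2 fold change of -0.38 ± 0.16 that missed both limits (adjusted p = 0.0653 in that DESeq2-based test). Thus 4 of the 5 members tested in this line were called, all higher, where 18.5% of the 249 miRNAs tested were called higher and 27.7% in either direction. The median log2 fold change of the members was 2.31, against 0.04 over all miRNAs tested. The miR-449 members among them come from the same intron, so their calls are not separate observations, and the median is the value of hsa-miR-449b-5p.

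The miRNAs with means of at least 100 had a median log2 fold change of 0.12 in HCT116 5/4 and 0.11 in RPE1 5/3 12/3, and of at most 0.07 in size in the other tables. Relative to that shift, hsa-miR-449c-5p, hsa-miR-449b-5p and hsa-miR-449a were higher by 2.54, 2.19 and 2.89 in HCT116 5/4, and hsa-miR-34c-5p by 1.02. Markers moved in the same table: hsa-miR-142-5p of blood cells was called higher (2.49 ± 0.24) and hsa-miR-204-5p as well (1.56 ± 0.51, mean 18.4), while the other names of the blood list, hsa-miR-223-5p and hsa-miR-451a, were not listed. Of the 7 listed colon miRNAs, 3 were called higher and 2 lower. Their part in the miR-449 result was not tested.

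The gain from 2 to 4 copies of chromosome 5 corresponds to a log2 ratio of 1. All 3 miR-449 members lay above it in HCT116 5/4, hsa-miR-449a by 2.01, hsa-miR-449c-5p by 1.66 and hsa-miR-449b-5p by 1.31 on the log2 scale. The Wald tests against the copy ratio on the DESeq2 errors gave adjusted p-values of 6.58e-12, 1.52e-18 and 0.0146, respectively, over the 5 tests made in both lines with the gain. With 2 degrees of freedom they were 0.0496, 0.0496 and 0.200, so that hsa-miR-449b-5p was no longer past the threshold.

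RPE1 5/3 12/3, with 3 copies of chromosome 5, showed no called member. hsa-miR-449c-5p was at 37.4 normalised counts in RPE1 and 57.6 in the line, a log2 fold change of 0.62 ± 0.35 (95% interval -0.07 to 1.31, DESeq2-based adjusted p = 0.205). hsa-miR-449a was at 9.54 and 16.7, with 0.81 ± 0.57 (-0.30 to 1.92). Both intervals held 0 as well as 0.58, the log2 ratio of 3 to 2 copies, so that no change and a change in proportion to the copies could not be told apart at these levels. The differences from the copy ratio were 0.04 for hsa-miR-449c-5p and 0.22 for hsa-miR-449a (DESeq2-based adjusted p = 0.918 and 0.867).

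In the same line hsa-miR-34a-5p was at 1567 in RPE1 and 1113 in RPE1 5/3 12/3 (-0.49 ± 0.35), and hsa-miR-34c-5p at 68.8 and 102 (0.57 ± 0.38). None of the 4 members tested was called, where 30.4% of 237 miRNAs were. The standard errors of hsa-miR-34a-5p, hsa-miR-34c-5p and hsa-miR-449a were larger here than in any other table with a mean of at least 10, and that of hsa-miR-449c-5p was as large as in RPE1* 21/3 (0.35).

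The fold changes of miR-449 were compared between the 2 lines with extra chromosome 5. The log2 fold change of hsa-miR-449a was larger in HCT116 5/4 than in RPE1 5/3 12/3 by 2.20 (95% interval 0.95 to 3.45, adjusted p = 0.0011, Wald test of the difference on DESeq2 errors over 4 members). That of hsa-miR-449c-5p was larger by 2.04 (1.26 to 2.82, DESeq2-based adjusted p = 1.17e-06). With the 4 degrees of freedom that both fits leave after their replicate terms, the adjusted p was 0.0519 for hsa-miR-449a and 0.0274 for hsa-miR-449c-5p. The lines differ in copies of chromosome 5, cell type and the extra chromosome 12, which cannot be told apart here. For hsa-miR-34a-5p the difference was 0.12 (-0.63 to 0.87) and for hsa-miR-34c-5p 0.57 (-0.33 to 1.47), neither past the threshold.

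Other miRNAs encoded on chromosome 5 are given beside the members without a test. In HCT116 5/4, 8 others had a mean of at least 10, with a median log2 fold change of 0.52 and a range from -0.21 to 6.60; 3 were called higher and none lower. In RPE1 5/3 12/3 there were 9, with a median of 0.68 and a range from -0.79 to 3.47, again with 3 called higher and none lower. miRNAs placed on other chromosomes had medians of 0.02 over 202 and -0.02 over 195.

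**Figure D3:**
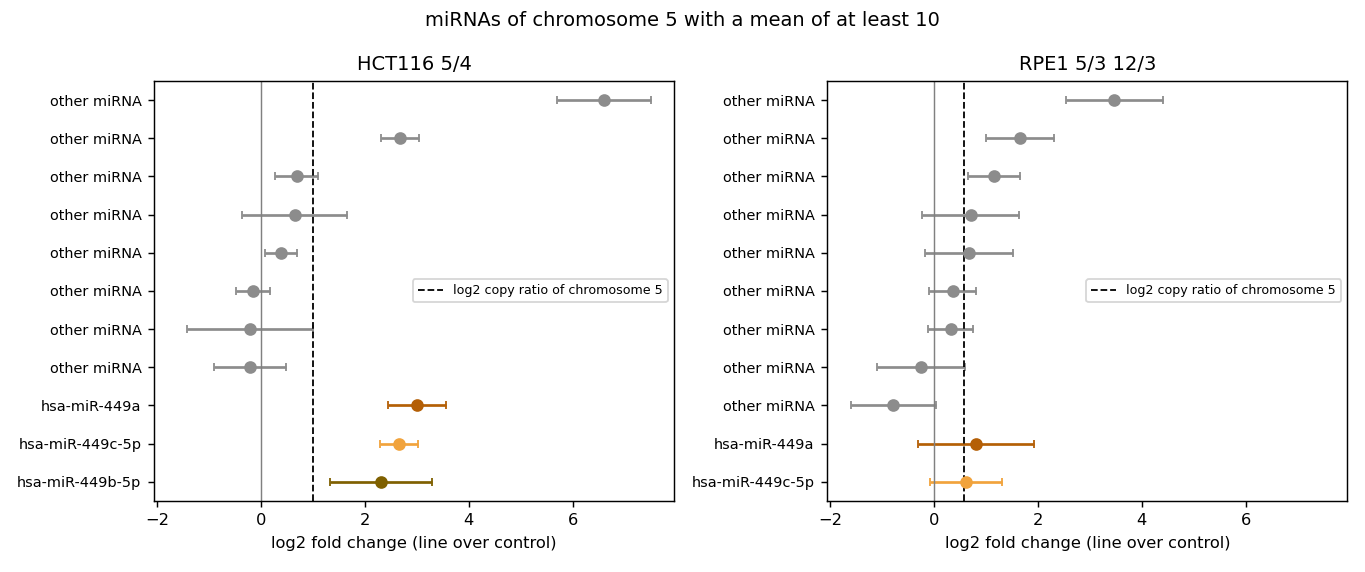
Log2 fold change with 95% interval of each chromosome 5 miRNA with a mean of at least 10 in the 2 lines that gained this chromosome; members are coloured and named, other miRNAs are grey. The dashed line is the log2 copy ratio, 1 in HCT116 5/4 and 0.58 in RPE1 5/3 12/3; all 3 miR-449 intervals lie to the right of it in HCT116 5/4, and both intervals cross it in RPE1 5/3 12/3.

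Among the lines without a labelled gain of chromosome 5, miR-449 changed in HCT116 18/3 c2. There hsa-miR-449c-5p fell from 660 to 423 normalised counts (log2 fold change -0.64 ± 0.12, DESeq2-based adjusted p = 1.39e-06). hsa-miR-449a from the same intron was at 37.4 and 36.0 (-0.06 ± 0.26) and hsa-miR-449b-5p at 5.70 and 5.27, under the limit on the mean. hsa-miR-142-5p, the blood marker, was called lower in this table as well (-1.10 ± 0.34, mean 15.1), and its part in the result was not tested.

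In HCT116* 3/3 c11, hsa-miR-449c-5p stood at 787 and 653 (-0.27 ± 0.15, DESeq2-based adjusted p = 0.226) and hsa-miR-449a at 44.5 and 43.9. In HCT116* 8/3 c7 the levels were nearly level, 719 and 722 for hsa-miR-449c-5p (0.01 ± 0.10, 95% interval -0.19 to 0.20) and 41.4 and 48.8 for hsa-miR-449a (0.24 ± 0.24). In RPE1* 7/3 hsa-miR-449c-5p was at 62.2 and 60.3 (-0.05 ± 0.27), and in RPE1* 21/3 at 36.1 and 31.8 (-0.18 ± 0.35). hsa-miR-449a had means of 5.63 and 8.96 in these last 2 tables and was not tested there.

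The rise in HCT116 5/4 exceeded the value in HCT116* 8/3 c7, which has other control libraries, by 2.77 for hsa-miR-449a and 2.66 for hsa-miR-449c-5p. The DESeq2-based Wald tests of these differences gave adjusted p-values of 4.91e-13 and 1.82e-35 over 7 differences chosen after the values were seen. The controls themselves differed in level. On the ppm scale hsa-miR-449c-5p was at 31.8 in HCT116 and at 83.0 to 91.8 in HCT116*, against 201 in HCT116 5/4 and 53.2 in HCT116 18/3 c2. The HCT116* level was 2.71 to 2.77 times that of HCT116 when the tables were scaled by their median ratio instead.

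hsa-miR-34c-5p was called in more lines than any other member, in 4 lines higher and in 1 lower. It rose by the largest factor in RPE1* 7/3, from 44.8 to 148 normalised counts (log2 fold change 1.73 ± 0.25, DESeq2-based adjusted p = 9.53e-11). In HCT116* 3/3 c11 it rose from 85.5 to 175 (1.04 ± 0.22, DESeq2-based adjusted p = 7.12e-05). In HCT116 18/3 c2 it went from 70.2 to 108, a log2 fold change of 0.62 ± 0.20 just above the limit of 0.6 (DESeq2-based adjusted p = 0.0119), which came to 0.57 and was no longer called once the table's median was subtracted.

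In HCT116* 8/3 c7, in contrast, hsa-miR-34c-5p fell from 70.7 to 30.7 normalised counts (-1.21 ± 0.25, DESeq2-based adjusted p = 1.48e-05), a 2.31-fold decrease. The 3 HCT116* comparisons share their control libraries, with hsa-miR-34c-5p at 70.2, 85.5 and 70.7 in the control of the 3 tables. The difference between HCT116 5/4 and HCT116* 8/3 c7, which share no library, was 2.34 (95% interval 1.63 to 3.06, DESeq2-based adjusted p = 2.19e-10). This difference was also chosen after the values were seen. In RPE1* 21/3 hsa-miR-34c-5p was at 101 and 105 (0.05 ± 0.29).

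hsa-miR-34a-5p rose in 2 lines. In RPE1* 7/3 it went from 788 to 2070 normalised counts, a 2.63-fold rise (log2 fold change 1.39 ± 0.13, DESeq2-based adjusted p = 3.16e-23). In HCT116 18/3 c2 it went from 2013 to 3673, a 1.82-fold rise (0.87 ± 0.23, DESeq2-based adjusted p = 0.0014). Both lines also had hsa-miR-34c-5p called higher.

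In RPE1* 21/3 hsa-miR-34a-5p was at 2022 in the control and 1237 in the line, a log2 fold change of -0.71 ± 0.25 just outside the threshold (DESeq2-based adjusted p = 0.0503). Adjusting over the miRNAs with a mean of at least 10 alone gave 0.0425 and a call. In HCT116* 3/3 c11 it was at 2275 and 2659 (0.23 ± 0.20), and in HCT116* 8/3 c7 at 2032 and 1620 (-0.33 ± 0.22).

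The fold changes of both miR-34 members over their own controls differed between the 2 RPE1* lines. The log2 fold change of hsa-miR-34a-5p in RPE1* 7/3 exceeded that in RPE1* 21/3 by 2.10 (95% interval 1.55 to 2.66, DESeq2-based adjusted p = 3.98e-13), and that of hsa-miR-34c-5p by 1.67 (0.93 to 2.42, DESeq2-based adjusted p = 1.61e-05). For hsa-miR-449c-5p the difference was 0.13 (-0.74 to 1.00). These differences were among the 7 chosen after the values were seen. The marker hsa-miR-204-5p was also called higher in RPE1* 7/3 (1.06 ± 0.15), and its part in the result was not tested.

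The 2 sets of RPE1* control libraries were themselves apart in miR-34. hsa-miR-34a-5p was at 70.3 ppm in libraries 11-13 and at 251 in libraries 1-3, with RPE1* 7/3 between them at 184 and RPE1* 21/3 at 154. The levels of the 2 lines were thus closer to each other than those of their controls. hsa-miR-34c-5p was at 3.99 and 12.5 ppm in the 2 control sets, with 13.2 in RPE1* 7/3 and 12.98 in RPE1* 21/3. Scaled by the median ratio of the 129 miRNAs with means of at least 100 in both tables, hsa-miR-34a-5p was 2.98-fold and hsa-miR-34c-5p 2.61-fold lower in libraries 11-13. Of those 129 miRNAs, 90.7% differed less between the sets than hsa-miR-34a-5p did. What separates the 2 control sets is not stated beyond their numbers, and its part in the rise in RPE1* 7/3 was not tested.

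The levels of HCT116 18/3 c2 are set beside both HCT116-derived controls. hsa-miR-34a-5p was at 253 to 259 ppm in HCT116*, 648 in HCT116 and 462 in HCT116 18/3 c2, so that the line without H2B-GFP by its name lay between the 2 controls. Its hsa-miR-449c-5p level, 53.2 ppm, also lay between those of HCT116 and HCT116*. The other members did not: hsa-miR-34c-5p, at 13.5 ppm, was above both controls, and hsa-miR-449a, at 4.52, and hsa-miR-449b-5p, at 0.66, were below both.

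Read by line, 3 of 4 tested members were called in HCT116 18/3 c2, where 18.2% of all 280 miRNAs tested were called. Of these, 2 were higher (background 8.93%) and 1 was lower (9.29%). In HCT116* 3/3 c11 1 of 4 was called, higher (6.09% higher, 9.68% in either direction), and in HCT116* 8/3 c7 1 of 4, lower (5.46% lower, 15% in either direction). In RPE1* 7/3 2 of 3 were called, both higher (7.29% higher, 13% in either direction), and in RPE1* 21/3 none of 3 (8.66%). The members' median log2 fold change was 1.39 in RPE1* 7/3 against -0.04 over all miRNAs, and 0.28, 0.10, -0.16 and -0.18 in HCT116 18/3 c2, HCT116* 3/3 c11, HCT116* 8/3 c7 and RPE1* 21/3.

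The total of the family was set mainly by hsa-miR-34a-5p. It made up 92.8% of the summed members in HCT116 and 64.3% in HCT116 5/4, where the rise of miR-449 raised its own sum 6.52-fold while the whole family went from 699 to 777 ppm. In RPE1* 7/3 the family went from 80.2 to 204 ppm and in RPE1* 21/3 from 269 to 172, with miR-449 at 5.05 to 5.96 ppm throughout these 4 groups. In HCT116 18/3 c2 the sum of miR-34 rose from 262 to 475 ppm as that of miR-449 went from 88.4 to 58.4. These sums are descriptions without a test.

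**Figure D4:**
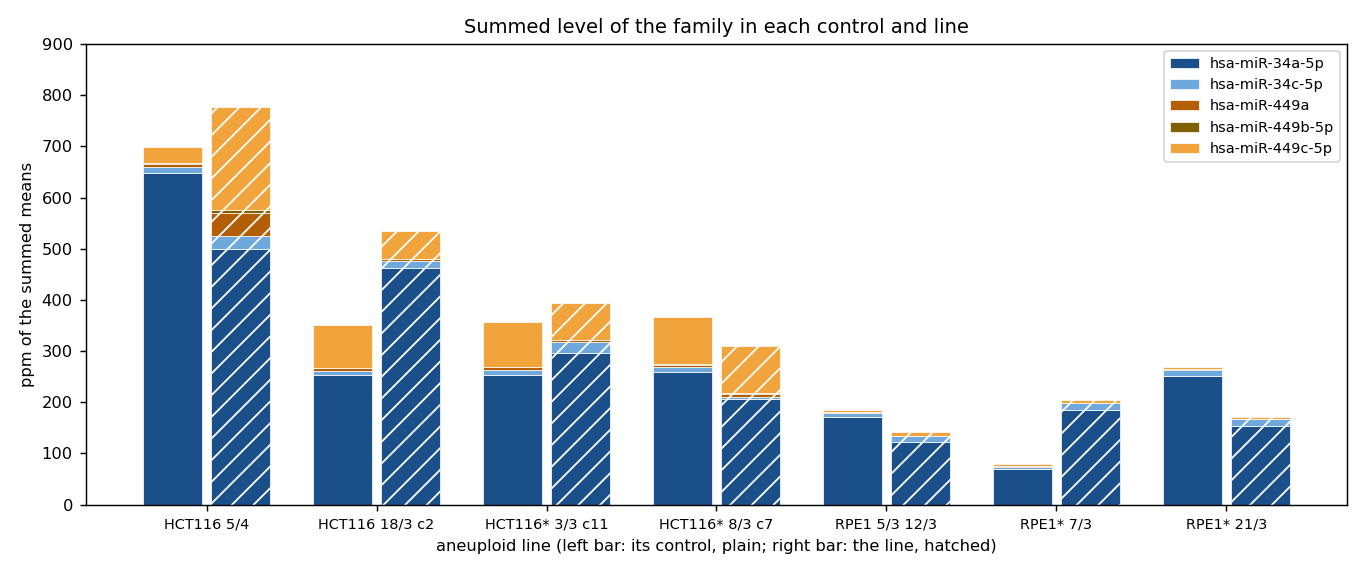
Summed worked-out level of the listed members, in ppm of the table's summed means, in the control (plain bar) and aneuploid line (hatched bar) of each table, stacked by member. hsa-miR-34a-5p fills most of every bar, the miR-449 share is widest in HCT116 5/4, and the lowest bar is the RPE1* 11-13 control at 80.2 ppm.

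hsa-miR-2682-5p, with the shifted seed, was listed in the 3 RPE1-derived tables only, at means of 774, 2507 and 556 in RPE1 5/3 12/3, RPE1* 7/3 and RPE1* 21/3. Its log2 fold changes were 0.42 ± 0.25, 0.12 ± 0.15 and -0.08 ± 0.22, and none was called.

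Other miRNAs linked to p53 were examined as a list of 18 names, such as hsa-miR-192-5p and hsa-miR-215, which p53 induces in colon cells, and hsa-miR-145-5p, whose maturation it aids. Of these 11 were listed in at least 1 table. Calls were 4 higher and 2 lower of 10 tested in HCT116 5/4, 1 and 1 of 10 in HCT116 18/3 c2, 1 and 1 of 10 in HCT116* 3/3 c11, and 0 and 1 of 10 in HCT116* 8/3 c7. In the RPE1-derived lines they were 5 higher and 0 lower of 9 in RPE1 5/3 12/3, 0 and 1 of 8 in RPE1* 7/3, and 1 and 1 of 9 in RPE1* 21/3. The shares of all miRNAs called in either direction were, in the same order, 27.7%, 18.2%, 9.68%, 15%, 30.4%, 13% and 8.66%. The list's median log2 fold change was 0.28 in HCT116 5/4 and 0.61 in RPE1 5/3 12/3, against 0.04 and 0.07 over all miRNAs tested. It was 0.04 in RPE1* 7/3, the line with the largest rise of both miR-34 members.

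The 4 miRNAs of the list with the largest called changes had these in RPE1* 7/3 and HCT116 5/4, and each was also called in other lines. hsa-miR-145-5p fell in RPE1* 7/3, with a log2 fold change of -3.65 ± 0.29, in the table where hsa-miR-34a-5p rose. It was also called lower in RPE1* 21/3 (-1.53 ± 0.22) and HCT116* 8/3 c7 (-0.60 ± 0.12), where hsa-miR-34a-5p was not called. hsa-miR-192-5p (1.96 ± 0.16) and hsa-miR-215 (1.81 ± 0.25) rose in HCT116 5/4, where hsa-miR-34a-5p was not called. Both were also called higher in RPE1 5/3 12/3 (1.29 ± 0.24 and 1.33 ± 0.34), where hsa-miR-34a-5p was not called either. hsa-miR-192-5p was called lower in HCT116 18/3 c2 (-1.21 ± 0.10), where hsa-miR-34a-5p rose. hsa-miR-200c-5p, of an epithelial family, fell in HCT116 5/4 (-1.77 ± 0.30) and was also called lower in HCT116* 3/3 c11 (-0.69 ± 0.24). It also belongs to the colon marker list, as do hsa-miR-192-5p and hsa-miR-215.

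The miRNAs with the most similar pattern over the 7 lines were found by the root mean square difference of log2 fold changes, among 173 miRNAs with a mean of at least 10 in every table. For hsa-miR-34a-5p they were hsa-miR-7-5p (0.47), hsa-miR-32-5p (0.47) and hsa-miR-106b-5p (0.49), where the median over the others was 0.88. For hsa-miR-34c-5p they were hsa-miR-339-5p (0.64), hsa-miR-204-5p (0.72) and hsa-miR-221-5p (0.77), with a median of 1.11. For hsa-miR-449c-5p they were hsa-miR-215 (0.44), hsa-miR-192-5p (0.48) and hsa-let-7i-5p (0.59), with a median of 1.13. These are descriptions over 7 tables, 3 of which share control libraries, and neither miR-34 member was among the nearest of the other.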

How the data were processed

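RNA of 36 libraries was extracted with miRNeasy and prepared with TruSeq small RNA kits. The authors removed adapters with cutadapt, mapped reads to hg19 and counted miRBase miRNAs with mirdeep2. They normalised and compared each line with its control in DESeq2 (version not given in the sources used here), with the replicate number as a further term for HCT116 5/4, RPE1* 21/3 and also RPE1 5/3 12/3. The deposited mean is a signal, the normalised count averaged over 6 libraries, and the deposited log2 fold changes and their standard errors come from the same fit. The deposited p-value columns hold the Wald p and its adjusted form; they were not used other than to check the recomputed adjusted p, which differed by at most 0.0019 on the log10 scale.

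Here the Wald statistic, two-sided normal p and Benjamini-Hochberg adjustment were recomputed over each whole table (Python 3 with scipy), and the calling was tested on simulated data. Intervals of 95% are 1.96 standard errors each way. Group means were worked out as those with the listed mean and ratio for equal groups, without the pairing term. All 27 tested values had a standard error above that of counting alone. Of the 4 values with means under 10, 3 had a smaller one. Over all listed miRNAs, 143 had a smaller one in HCT116 18/3 c2, 164 in HCT116* 8/3 c7 and 155 in RPE1* 7/3. There were 38 in RPE1* 21/3, 4 in HCT116 5/4 and 0 in HCT116* 3/3 c11 and RPE1 5/3 12/3. A standard error below that of counting alone is too small for a plain ratio of counts. Fold changes with such errors, and the levels and ratios worked out from them, are thus uncertain. The planned count test needs single libraries, so the Wald test replaced it. Chromosomes were assigned by RefSeq names to 441 of 509 miRNAs, and loci come from GENCODE 44 on GRCh37. The summed means of 5556870 to 11221232 per table are normalised and do not give the depth of a library.

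Named miRNAs were all members, their other arms, miRNAs of the same seed, the 3 nearest in pattern per fully tested member, and the p53-linked calls with the largest change. The members and lists were chosen with earlier results of these data known. Differences of RPE1* 7/3 from RPE1* 21/3 and of HCT116 5/4 from HCT116* 8/3 c7, the scaling between tables and the degrees of freedom less the replicate term were added after the values were seen. The authors give 3 biological replicates per group.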

Additional observations from a re-analysis of the deposited data

Results flagged for a closer look

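The fold change of a member over its own control differed between lines in 7 of the 11 differences tested with a normal distribution. Between the 2 lines with extra chromosome 5, HCT116 5/4 minus RPE1 5/3 12/3 was 2.20 for hsa-miR-449a and 2.04 for hsa-miR-449c-5p on the log2 scale, the first of which had an adjusted p of 0.0519 with 4 degrees of freedom on the DESeq2 errors. Between the 2 RPE1* lines, RPE1* 7/3 minus RPE1* 21/3 was 2.10 for hsa-miR-34a-5p and 1.67 for hsa-miR-34c-5p. HCT116 5/4 minus HCT116* 8/3 c7 was 2.34 for hsa-miR-34c-5p, 2.77 for hsa-miR-449a and 2.66 for hsa-miR-449c-5p. The last 5 of these differences were chosen after the values were seen, and in each pair the lines have separate control libraries as well as gains that differ, and the control sets differed in level.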

How the results depend on the processing

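No paired analysis was possible because the tables hold no values of single libraries, beyond the replicate term already in the deposited fits of 3 lines; for the same reason the count models, other normalisations and fits without 1 replicate were not run. Of 291 single values under an alternative, 266 kept their direction and their side of the threshold, 23 lost a call and 1 gained one. Many of the 291 had no call to lose. Dropping the limit on the mean or on the fold change could not remove a call, so the 266 do not measure stability. The direction reversed for hsa-miR-449c-5p in RPE1 5/3 12/3 minus the copy ratio, never past the threshold (-0.073 with the table's median subtracted). Of 66 counts of called members, 12 moved by over 1.5 times. A t distribution with 2 degrees of freedom for tables fitted with the replicate term, chosen after seeing the data, left 0 calls in HCT116 5/4, losing hsa-miR-449a (3.01), hsa-miR-449c-5p (2.66), hsa-miR-449b-5p (2.31; excess 1.31) and hsa-miR-34c-5p (1.14); with 4 it lost the difference of hsa-miR-449a (2.20). The t distribution with 4 degrees of freedom left 3 of 11 calls. How many of all miRNAs kept a call is not given for the t distributions or for any other alternative named here. A loss of calls under them is thus no result about the members. The counts were then 2 in HCT116 5/4, 1 in RPE1* 7/3 and 0 in HCT116 18/3 c2, HCT116* 3/3 c11 and HCT116* 8/3 c7. Lost under it were hsa-miR-34c-5p in HCT116 5/4 (1.14), HCT116 18/3 c2 (0.62), HCT116* 3/3 c11 (1.04), HCT116* 8/3 c7 (-1.21) and RPE1* 7/3 (1.73), hsa-miR-449b-5p in HCT116 5/4 (2.31; excess over the copy ratio 1.31), and hsa-miR-34a-5p (0.87) and hsa-miR-449c-5p (-0.64) in HCT116 18/3 c2. The test against a log2 fold change of 0.6 left 5 calls. It lost hsa-miR-34c-5p in the 4 HCT116-derived lines and hsa-miR-34a-5p and hsa-miR-449c-5p in HCT116 18/3 c2, with counts of 0 in HCT116 18/3 c2, HCT116* 3/3 c11 and HCT116* 8/3 c7. hsa-miR-34c-5p in HCT116 18/3 c2 was also lost at a threshold of 0.01 and with the table's median subtracted (0.57). A mean of at least 100 left hsa-miR-34c-5p untested in several lines, with counts of 0 in HCT116* 8/3 c7 and 1 in RPE1* 7/3. Adjusting over miRNAs with a mean of at least 10 called hsa-miR-34a-5p in RPE1* 21/3 (-0.71), a count of 1. Both called differences between HCT116 5/4 and RPE1 5/3 12/3 held with 8 degrees of freedom, which ignores the replicate terms, and with medians subtracted. The precision is limited by 3 libraries a group and, for hsa-miR-449a and hsa-miR-449b-5p in several tables, by means near or under 10.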

Other observations

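Ratios between members are given as values. The worked-out level of hsa-miR-449c-5p over hsa-miR-449a was 17.4 to 17.7 in the 3 HCT116* controls and 5.77 in HCT116. It was 3.92 in RPE1, 3.96 in RPE1* 1-3 and 13.2 in RPE1* 11-13, where hsa-miR-449a was at only 4.70 normalised counts. Within HCT116 5/4 the ratio was 4.54, and within HCT116 18/3 c2 it was 11.8. The worked-out level of hsa-miR-449a over hsa-miR-449b-5p was 4.07 in HCT116, and 6.56 and 6.08 in the 2 HCT116* controls that list both. The mean of hsa-miR-34a-5p was 14.8 to 36.0 times that of hsa-miR-34c-5p over the 7 tables. Such ratios within a table do not depend on its scaling, and none was tested.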
